A study of Rattus norvegicus with 6 samples.

Results

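The 10 genes described here, Exosc1 to Exosc10, encode the core subunits of the RNA exosome and its nuclear partner nuclease, and they were taken from the deposited tables by their gene symbols. All 10 were among the 18631 genes listed, and all 10 passed the filter on low counts that left 13423 genes. Their expression was measured by sequencing of polyadenylated RNA from rat vascular smooth muscle cells, which contract the walls of blood vessels, in 3 libraries labelled MIAT knockdown and 3 titled Scr whose genotype is given as WT. MIAT, a noncoding transcript, is tied by the series title, with the helicase DHX9, to the nucleolus and to mitosis in the thickening vein wall. Knockdown used siRNAs together with antisense oligonucleotides, 50 nM of both combined, left on for 72 h, per the labels. The labels carry that text for every library and do not say what the Scr cells received, and Miat was not analysed here, so neither the depth of the knockdown nor the group labels could be checked. Whether each library had its own culture is not labelled, so p-values measure the spread between these libraries only, which may be technical.

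The exosome degrades and trims RNA from its 3′ end. In mammals 6 related proteins form a ring that has lost its own catalytic activity, 3 RNA-binding proteins cap the ring, and the RNA is threaded through the barrel to the nuclease DIS3. EXOSC10, a second nuclease concentrated in the nucleolus, sits on the cap side and trims precursors of ribosomal and small nucleolar RNA. In the nucleus the helicase MTREX feeds RNA to the exosome, and in the cytoplasm the SKI complex does so.

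The members were chosen by name with their differences between knockdown and Scr libraries, in counts, FPKM and same-numbered pairs, already known. Those differences are given as a description, and the calls listed for them below are not read as support. Total counts were 18173111 to 18598394 per knockdown library and 17793811 to 20121161 per Scr library. The share held by each library's top 10 genes was 8.49% to 9.73% in knockdown and 10.5% to 14.0% in Scr libraries. Summed expression of 8 smooth muscle markers was 7545 to 10624 CPM (counts scaled to the library by TMM) in knockdown and 8659 to 10751 CPM in Scr libraries, although Des, one of the 8, stayed at or below 0.729 CPM in every library. Of the 8, 0 rose and 2 fell: Myh11, smooth muscle myosin heavy chain, fell by 0.51 on the log2 scale (edgeR adjusted p = 0.0162 with the replicate block described below) and Lmod1, a filament nucleator, by 0.30 (adjusted p = 0.0372). In the same fit 10.5% of all tested genes rose and 11.1% fell. Summed endothelial markers were at 2.54 to 4.63 CPM in knockdown and 2.68 to 9.13 CPM in Scr libraries, with Cdh5 at 0 in 4 of 6 libraries. Kdr, a receptor among them, fell by 1.02 (edgeR adjusted p = 0.0148). It was low, at 3.44, 2.47 and 0.831 CPM in knockdown libraries 1 to 3, against 7.60, 4.26 and 1.87 CPM in Scr libraries 1 to 3. Calls of markers are given for the block fit only. The 4 leukocyte markers in the table summed to 9.07 to 13.7 CPM in knockdown and 7.98 to 21.3 CPM in Scr libraries, with Ptprc at 0 in 5 of 6, and the 4 Schwann cell and adipocyte markers to 2.04 to 2.50 CPM in knockdown and 3.27 to 4.71 CPM in Scr libraries. The part of these cell markers in the members' differences was not tested. In such bulk RNA, a changed share of cells and a changed amount of RNA per cell cannot be told apart.

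Exosc6 stood apart from the other subunits: edgeR's fold of knockdown over Scr was 2.61, while the other 9 folds ran from 1.03 to 1.38. The 10 genes together took 4550, 3903 and 4285 counts in knockdown libraries 1 to 3, against 3198, 3169 and 3270 counts in Scr libraries 1 to 3. Scaled by TMM, the sums were 237, 209 and 222 CPM in knockdown and 181, 178 and 175 CPM in Scr libraries, so the groups did not overlap. All 10 log2 fold changes were above 0, against 47.9% of all tested genes, with a median of 0.39 against -0.01 over all tested genes.

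Promoter sequences are shown for the subunit with the largest difference, for its partner in the ring and for the nuclease subunit with the smallest difference, so that the start regions of members that did and did not differ can be read side by side. They run from 250 bases before to 50 bases after the annotated start in RefSeq on GRCr8, at chr19:55931273-55931572 (+ strand), chr8:131650813-131651112 (+ strand) and chr5:164278190-164278489 (+ strand). Capitals mark matches on either strand to any of 5 motifs, the E-box CACGTG, the ETS-type core CGGAAG, the NRF1-type motif (GCGCA, any base, then GCGC), the YY1-type core ATGGCG and the CREB/ATF palindrome TGACGTCA.
Exosc6: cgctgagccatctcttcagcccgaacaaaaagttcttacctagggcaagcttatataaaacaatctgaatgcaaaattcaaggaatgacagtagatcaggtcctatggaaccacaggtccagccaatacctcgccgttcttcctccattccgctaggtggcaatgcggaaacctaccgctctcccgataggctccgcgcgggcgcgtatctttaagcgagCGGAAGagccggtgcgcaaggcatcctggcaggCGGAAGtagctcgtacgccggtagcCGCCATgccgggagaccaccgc
Exosc7: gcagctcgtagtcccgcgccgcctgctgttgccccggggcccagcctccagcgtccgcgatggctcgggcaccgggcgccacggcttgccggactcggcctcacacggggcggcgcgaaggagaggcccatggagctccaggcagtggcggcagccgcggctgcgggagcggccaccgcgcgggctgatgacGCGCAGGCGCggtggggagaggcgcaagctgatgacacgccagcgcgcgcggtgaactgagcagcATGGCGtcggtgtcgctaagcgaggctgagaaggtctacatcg
Exosc10: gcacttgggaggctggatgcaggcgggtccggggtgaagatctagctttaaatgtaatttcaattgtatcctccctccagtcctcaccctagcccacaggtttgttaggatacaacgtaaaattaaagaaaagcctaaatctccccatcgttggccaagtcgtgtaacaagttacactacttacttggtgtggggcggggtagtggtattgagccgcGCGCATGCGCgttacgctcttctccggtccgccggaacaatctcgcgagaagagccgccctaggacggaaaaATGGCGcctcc
The table held promoters for 9 members, all but Exosc4. The NRF1-type motif was found in 6 of these 9 (Exosc1, Exosc2, Exosc5, Exosc7, Exosc8 and Exosc10), against 4.25% of the 33469 promoters of that length. The 33469 promoters were not limited to genes that passed the low-count filter, whereas all members passed it. The YY1-type core was found in 5 of 9, Exosc2, Exosc6, Exosc7, Exosc8 and Exosc10, against 9.98% of all promoters. All 5 matches lay after the annotated start, at positions 21, 29, 8, 25 and 40 in that order. The core opens with the start codon ATG, and whether these matches are protein starts was not tested. The ETS-type core was found in 3 of 9, Exosc3, Exosc5 and Exosc6, against 16.6%. Exosc3 held 6 copies of it and Exosc6 held 2. The E-box occurred in Exosc5 alone (6.42% of all promoters), the CREB/ATF palindrome in no member (1.83% of all promoters), and Exosc9 had no match to any of the 5. Matches to different motifs did not overlap in these promoters. The members' promoters had a median GC content of 56% (range 49.7% to 73.3%), against 51.7% for all promoters, and the motifs were chosen with the sequences in view. In the 6 members with the NRF1-type motif, log2 fold changes ran from 0.05 (Exosc10) to 0.44 (Exosc1). In Exosc3, Exosc6 and Exosc9, which had none, they were 0.47, 1.38 and 0.29. The part of these motifs in the differences was not tested.

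Levels of different genes were compared in the deposited FPKM, which divide the counts by gene length and library total. In knockdown libraries Exosc10 was the most abundant subunit gene at 19.0 ± 1.04 FPKM (SD, n = 3), and Exosc8 the lowest, at 5.93 ± 0.242 FPKM, a ratio of 3.21. Exosc9, Exosc4, Exosc7, Exosc5, Exosc3, Exosc2, Exosc6 and Exosc1 lay between, at 16.7 down to 8.92 FPKM, and each overlapped the next in that order, while Exosc10 lay above Exosc9 and Exosc1 above Exosc8 without overlap.

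In Scr libraries Exosc10 was again the highest, at 17.1 ± 0.967 FPKM, and Exosc9 at 12.7 ± 0.491 FPKM came next. Exosc5, Exosc4 and Exosc7 followed at 11.2, 10.7 and 10.2 FPKM, with ranges that overlapped from one to the next. Exosc2 and Exosc3 stood at 8.27 and 7.97 FPKM, Exosc1 and Exosc8 at 6.11 and 5.33 FPKM, each pair overlapping, and Exosc6 was the lowest at 3.63 ± 0.507 FPKM, below every Scr value of Exosc8. The mean of the highest subunit gene was 4.71 times that of the lowest. Exosc6, at 10.2 ± 2.22 FPKM in knockdown libraries, ranked 8 in knockdown and 10 in Scr libraries. Of the summed FPKM of the 10 genes it made up 7.06% to 9.22% in knockdown and 3.62% to 4.30% in Scr libraries. Exosc10 made up 14.1% to 15.8% in knockdown and 18.0% to 19.0% in Scr libraries. The plot of levels by library shows this change of order.

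**Figure D1:**
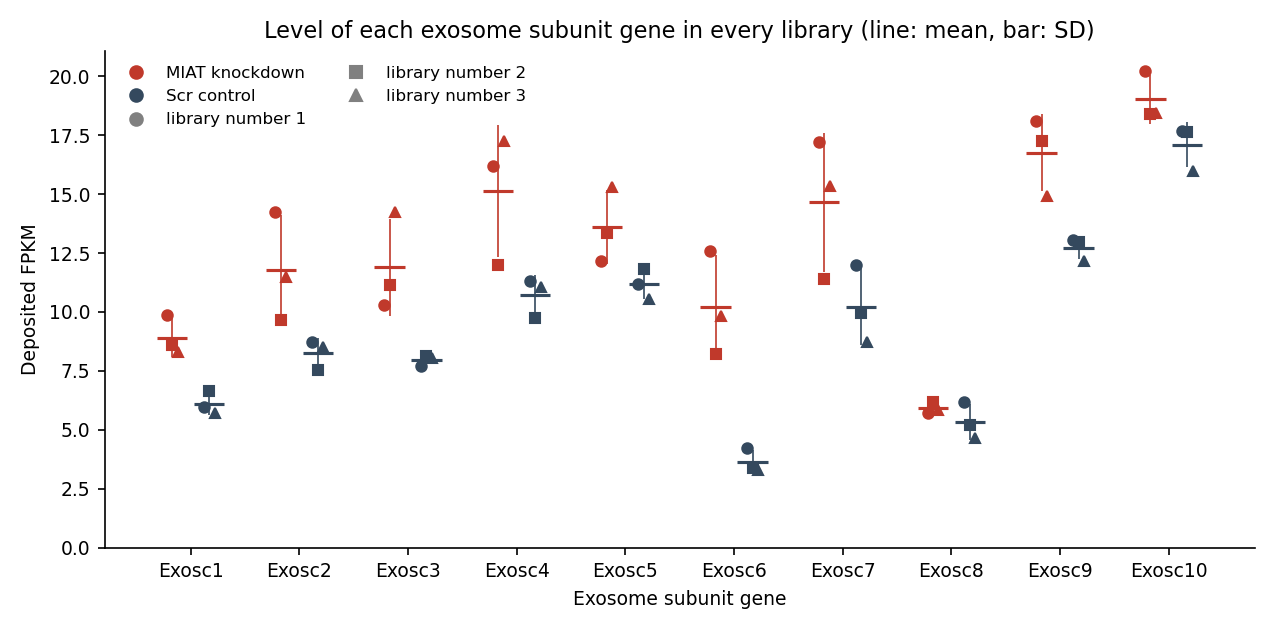
Deposited FPKM of the 10 exosome subunit genes in each of the 3 MIAT knockdown libraries (red, left of each pair) and the 3 Scr libraries (dark, right), with marker shape for the library number, a line at the mean and a bar of 1 SD. Exosc6 is at 8.20 to 12.6 FPKM in knockdown and 3.30 to 4.21 FPKM in Scr libraries, whereas the ranges of Exosc8 overlap between the groups.

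The 3 cap subunits were all higher in the knockdown libraries, with no overlap between the groups. Exosc1, the CSL4-type cap protein, had 9.85, 8.61 and 8.29 FPKM in knockdown libraries 1 to 3, against 5.97, 6.64 and 5.73 FPKM in Scr libraries 1 to 3. Its lowest knockdown value lay above its highest Scr value, and the log2 fold change in edgeR was 0.44 (standard error, SE, 0.105). Exosc2, the RRP4-type cap protein, had 14.2, 9.65 and 11.5 FPKM in knockdown libraries, against 8.74, 7.53 and 8.53 FPKM in Scr libraries. Knockdown library 1 was the highest and knockdown library 2 came closest to the Scr range, and the log2 fold change was 0.40 (SE 0.151). Exosc3, the RRP40-type cap protein, whose human gene is mutated in a form of pontocerebellar hypoplasia, had 10.3, 11.1 and 14.2 FPKM in knockdown libraries, against 7.72, 8.12 and 8.06 FPKM in Scr libraries. Here knockdown library 3 was the highest, and the log2 fold change was 0.47 (SE 0.159).

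The 6 ring subunits assemble as dimers, known from the human complex, and they are described dimer by dimer. Exosc6, the MTR3-type ring protein, had 510, 334 and 407 counts in knockdown libraries 1 to 3, against 167, 138 and 148 counts in Scr libraries 1 to 3. At these depths counting error alone is 4.43% to 8.51% of a value, and the lowest knockdown count lay above the highest Scr count. In FPKM it had 12.6, 8.20 and 9.82 in knockdown libraries, against 4.21, 3.37 and 3.30 in Scr libraries, and the log2 fold change was 1.38 (SE 0.175). Of the 13423 tested genes, 68 had a larger log2 fold change than Exosc6.

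Exosc7, the RRP42-type protein that pairs with EXOSC6 in the ring, had 17.2, 11.4 and 15.3 FPKM in knockdown libraries, against 12.0, 9.95 and 8.75 FPKM in Scr libraries. Knockdown library 2 lay within the Scr range, so the groups overlapped, and the log2 fold change was 0.41 (SE 0.177). Within single libraries the FPKM ratio of Exosc6 to Exosc7 was 0.732, 0.719 and 0.641 in knockdown libraries 1 to 3, against 0.351, 0.339 and 0.377 in Scr libraries 1 to 3. This ratio averaged 0.697 ± 0.0495 in knockdown and 0.356 ± 0.0198 in Scr libraries (SD, n = 3 each), and the groups lay far apart.

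Exosc4, the RRP41-type protein, and Exosc9, the RRP45-type protein, form another dimer. Exosc4 had 16.2, 12.0 and 17.3 FPKM in knockdown libraries, against 11.3, 9.74 and 11.1 FPKM in Scr libraries. In FPKM its groups did not overlap, but in TMM-scaled CPM they did, with knockdown library 2 at 13.0 CPM against 13.2 CPM in Scr library 3. The log2 fold change of Exosc4 was 0.39 (SE 0.158). Exosc9 had 18.1, 17.2 and 14.9 FPKM in knockdown libraries, against 13.1, 13.0 and 12.2 FPKM in Scr libraries. The Scr values were close together and below every knockdown value, and the log2 fold change was 0.29 (SE 0.0980). The FPKM ratio of Exosc4 to Exosc9 overlapped between groups, at 0.694 to 1.16 in knockdown and 0.752 to 0.909 in Scr libraries.

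The remaining ring dimer, EXOSC5 with EXOSC8, held the ring genes with the smallest differences. Exosc5, the RRP46-type protein, had 12.2, 13.3 and 15.3 FPKM in knockdown libraries, against 11.2, 11.8 and 10.6 FPKM in Scr libraries. Its log2 fold change was 0.18 (SE 0.130), and in CPM knockdown library 1 lay inside the Scr range. Exosc8, the RRP43-type protein, had 5.73, 6.20 and 5.85 FPKM in knockdown libraries, against 6.16, 5.20 and 4.64 FPKM in Scr libraries. The groups overlapped, and the log2 fold change of 0.05 was smaller than its SE of 0.128. The FPKM ratio of Exosc5 to Exosc8 was 2.12 to 2.62 in knockdown and 1.81 to 2.28 in Scr libraries, again overlapping.

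Exosc10, the nucleolar nuclease related to yeast RRP6, had 20.2, 18.4 and 18.4 FPKM in knockdown libraries, against 17.7, 17.7 and 16.0 FPKM in Scr libraries. With TMM scaling the values were 60.5, 57.0 and 56.3 CPM in knockdown and 56.4, 57.6 and 54.5 CPM in Scr libraries, which overlapped. It was the most deeply counted member, with 994 to 1162 counts a library and a counting error of 2.93% to 3.17%, and its log2 fold change was 0.05 (SE 0.0679).

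edgeR's quasi-likelihood test without a replicate block called 0 of the 10 members and 0 of all 13423 tested genes at an adjusted p under 0.05, with 6 members and 2576 genes at an unadjusted p under 0.05. DESeq2 on the same design called 2 members and 699 genes, and limma on log2(FPKM + 1) called 0 of either. Libraries of both groups carry numbers 1 to 3, and those that share a number deviated together across genes. With the library number as a block, edgeR called 6 of 10 members, all higher (Exosc1, Exosc2, Exosc3, Exosc4, Exosc6 and Exosc9), against 10.5% of all tested genes called higher and 21.6% called in either direction. That count was 1, Exosc6, without pair 1 and again without pair 2, 5 without pair 3, and 2, Exosc1 and Exosc6, in DESeq2 with the block. Calls moved over the whole table as well, since the 1412 genes called higher became 530, 348, 1924 and 661 in the same order. The groups did not overlap in CPM for 5 of 10 members, all higher, against 14.2% of all tested genes. The contrast was in view when the members were chosen, so nothing is read from these counts. For other genes, rose and fell mean that edgeR with the block gave an adjusted p under 0.05.

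**Figure D2:**
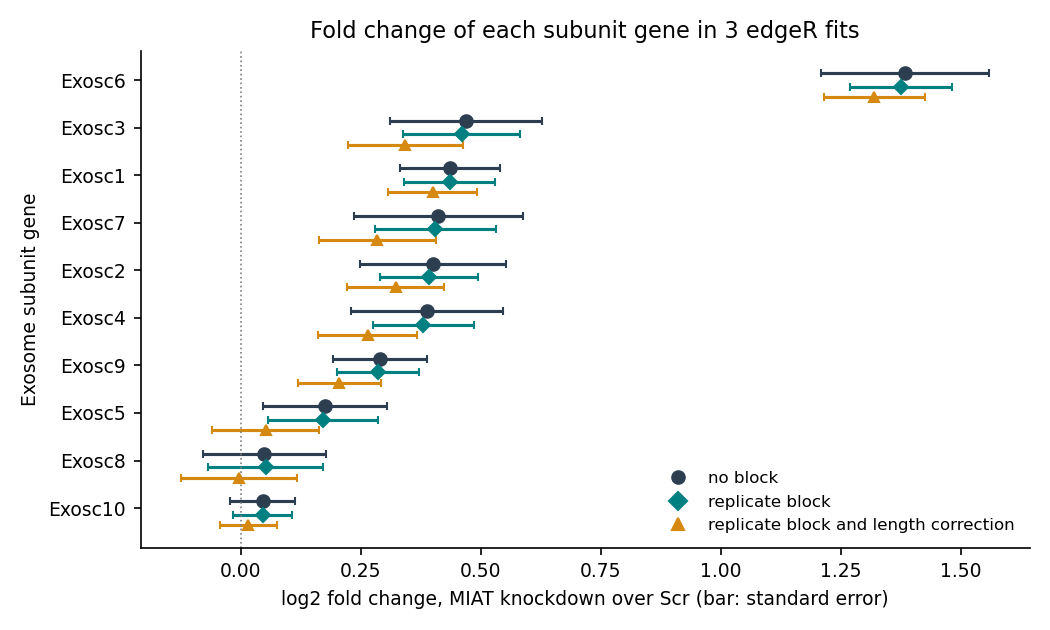
log2 fold change of MIAT knockdown over Scr for each exosome subunit gene, with bars of 1 standard error, from edgeR without a block (circles), with the replicate block (diamonds) and with the block and a correction for gene length (triangles). Exosc6 lies at 1.38, 1.37 and 1.32, and Exosc8 and Exosc10 lie within 1 standard error of 0 in all 3 fits.

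The same-numbered pairs gave differences of unlike size for single subunits. Exosc6 differed by 1.48, 1.21 and 1.41 on the log2 CPM scale in pairs 1, 2 and 3. Exosc1 and Exosc2 differed most in pair 1, by 0.63 and 0.61, whereas Exosc3 and Exosc7 differed most in pair 3, by 0.66 and 0.65. Exosc5 differed by 0.03 in pair 1 and 0.38 in pair 3, and Exosc8 by -0.20 in pair 1 and 0.18 in pairs 2 and 3. Exosc10 was lower by 0.01 in pair 2. The median difference of the 10 genes was 0.40, 0.25 and 0.38 in pairs 1 to 3, and 8 of 10 were higher in every pair, against 28.0% of all tested genes.

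**Figure D3:**
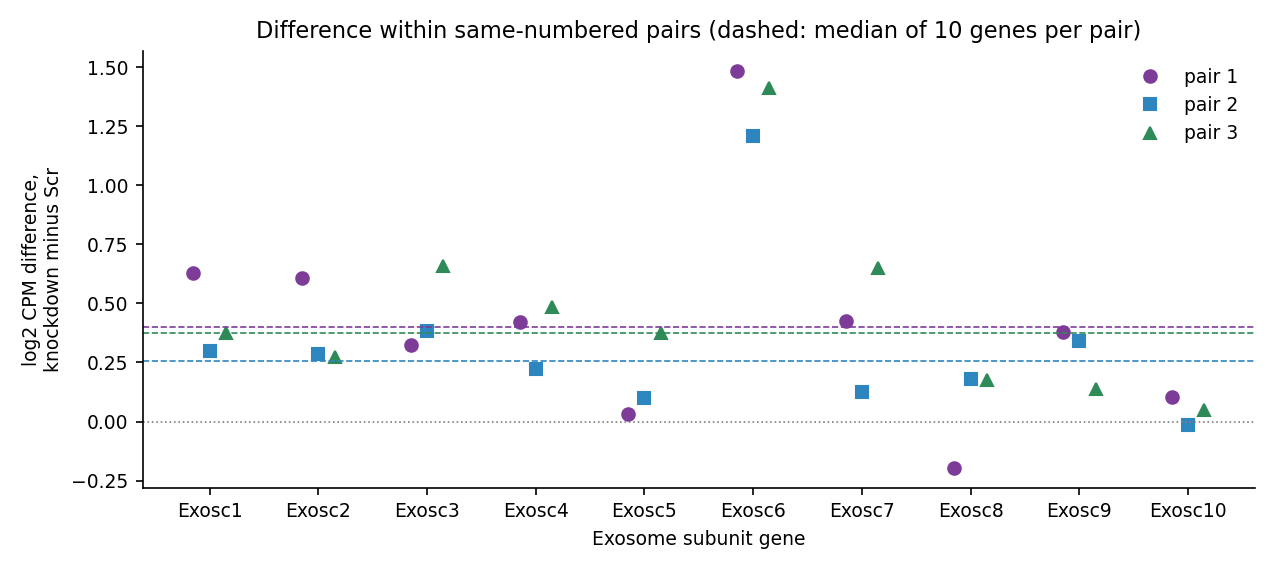
Difference in log2 CPM between the knockdown and the Scr library of the same number for each exosome subunit gene, with the pair given by marker and colour and the median of the 10 genes per pair as a dashed line. Exosc6 lies above 1.2 in every pair, and the lowest point is Exosc8 in pair 1 at -0.20.

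Over the 6 libraries, the log2 CPM of Exosc6 had a Pearson correlation of 0.92 with Exosc1, 0.88 with Exosc2 and 0.86 with Exosc7, while Exosc8 had 0.24 with Exosc6 and no more than 0.24 with any other member. These values are descriptive, since the points share their libraries and the group difference. After removal of the group means, knockdown library 2 was the lowest of its group for Exosc2, Exosc4, Exosc6 and Exosc7, by 0.25 to 0.31 on the log2 scale. Knockdown library 3 was the highest of its group for Exosc3, Exosc4 and Exosc5, by 0.18 to 0.27.

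Among 7097 genes of at least 20 CPM, those most like the mean of the members' standardized log2 CPM over the 6 libraries were Tgif1, a transcriptional repressor (Pearson r = 0.999), Nup85, a nuclear pore subunit (0.998), Dnttip2, a nucleolar protein (0.998), Pgp, a phosphoglycolate phosphatase (0.996), and Cnbp, a nucleic acid binding protein (0.995). Tgif1 averaged 56.2 ± 2.27 CPM in knockdown and 45.7 ± 1.65 CPM in Scr libraries, and Cnbp 390 ± 15.7 CPM in knockdown and 298 ± 8.56 CPM in Scr libraries (SD, n = 3 each). With 6 libraries, 426 genes had a correlation above 0.9. These correlations also carry the difference between the groups, so they are descriptive.

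The members were short genes, and fold changes moved with gene length across the whole table. Their lengths in the FPKM table ran from 1017 bases (Exosc7) to 3162 bases (Exosc10), with a median of 1811.5 against 3159 over all tested genes, and 9 of 10 were below that median. The median log2 fold change was 0.07 in the shortest 4475 genes, which included 8 members, -0.01 in the middle 4474, which included the other 2, and -0.11 in the longest 4474. With a correction for length and the block, Exosc6 had a log2 fold change of 1.32 (SE 0.105), Exosc1 one of 0.40 (SE 0.0925) and Exosc3 one of 0.34 (SE 0.120). That of Exosc8 was -0.0037, against 0.05 uncorrected. Under that correction 2 of 10 members were called, Exosc1 and Exosc6, both higher, against 9.03% of all tested genes called higher and 19.5% in either direction. The part of gene length in the differences was not tested beyond this correction.

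**Figure D4:**
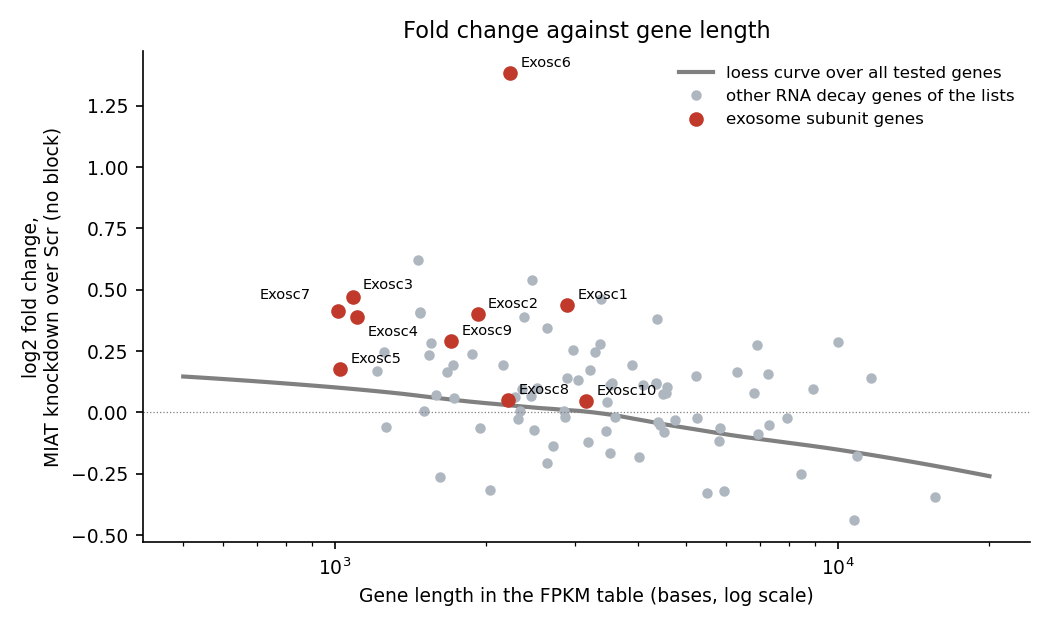
log2 fold change of MIAT knockdown over Scr without a block against gene length on a log axis, for the exosome subunit genes (red), the other RNA decay genes (grey points) and as a loess curve over all tested genes (grey line). The curve passes from above 0 for short genes to below 0 for long genes, and 8 of the 10 subunit genes are at or below 2260 bases.

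Some members share ground with other genes. In the GRCr8 annotation, used here for gene order only, Exosc4 overlapped Oplah, Exosc5 overlapped Bckdha, Exosc7 overlapped Zdhhc3 and Exosc8 overlapped Supt20h. How reads were counted, and on which strand, is unknown here, so reads of these pairs may be split or lost and the values of those 4 members are less certain. Bckdha, a subunit of the branched-chain ketoacid dehydrogenase, fell by 0.51 on the log2 scale in the block fit (edgeR adjusted p = 0.00712), and the other 3 partners did not pass, at log2 fold changes of -0.18 for Oplah, -0.12 for Zdhhc3 and -0.05 for Supt20h. Only the adjacent protein-coding gene on each side of a member was checked, so overlaps with other genes are unknown here. Exosc6 overlapped neither of its adjacent protein-coding genes. Its tested neighbour Aars1, the cytosolic alanyl-tRNA synthetase gene, was at 328 ± 7.98 CPM in knockdown and 288 ± 41.0 CPM in Scr libraries (SD, n = 3 each), which with the block was a log2 fold change of 0.19 (edgeR adjusted p = 0.103). Next to Exosc9 lies Ccna2, the cyclin A2 gene, which rose by 0.74 (adjusted p = 0.00324), and next to Exosc10 lies Srm, the spermidine synthase gene, which rose by 0.19 (adjusted p = 0.0401). Of 15 tested neighbours, 2 rose, 1 fell and 12 did not pass, a share near the 21.6% called over all tested genes. Calls of neighbours are given for the block fit only. That annotation also holds 2 pseudogenes of exosome subunits, Exosc8-ps1 and Exosc-ps1, neither of which the table lists, and reads of Exosc8 and possibly of other members could come from them.

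Genes that work with the exosome or in other steps of RNA decay differed in both directions. Of 79 tested genes in 8 lists of exosome partners and other RNA decay factors, with the block 12 rose, 5 fell and 62 stayed under the threshold, 21.5% called against 21.6% of all tested genes, and the median log2 fold change was 0.08. Without the block edgeR called 0 of the 79, and DESeq2 called 4. The 12 that rose had a median length of 2554.5 bases and the 5 that fell 8428 bases, so direction moved with gene length here too. With the length correction and the block 12 of these 17 calls remained. In the deadenylase list that fit newly called Cnot2 (0.23), Cnot6l (0.41) and Pan3 (0.28) higher and Tob1 (-0.35) lower. In the nucleolar list it newly called Nol9 (0.19) higher. Cnot6l, at 9985 bases, and Pan3, at 11611 bases, are long genes, whose fold changes that correction raises. With the block alone they stood at 0.29 and 0.14 and did not pass. Leaving out pair 1 kept 8 of the 17, leaving out pair 2 kept 5 and leaving out pair 3 kept all 17.

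Among the nucleases and proteins bound to the core, 1 of 6 rose. Dis3, the nuclease at the exit of the barrel, was at 38.7 ± 4.21 CPM in knockdown and 34.6 ± 2.10 CPM in Scr libraries (SD, n = 3 each), and its cytoplasmic relative Dis3l at 20.9 ± 1.76 CPM in knockdown and 19.3 ± 2.82 CPM in Scr libraries. Their log2 fold changes were 0.15 and 0.12 with the block, with edgeR adjusted p = 0.269 and 0.495. Eri1, an exonuclease that trims histone mRNA and ribosomal RNA, rose by 0.26 (adjusted p = 0.0322), and its call ended without pair 1 (0.25), without pair 2 (0.30) and with the block in DESeq2 (0.25).

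Of the 11 nuclear adaptors, 3 rose and 0 fell, while of all tested genes 10.5% rose and 11.1% fell. Rbm7, an RNA-binding subunit of the NEXT complex, was at 37.6 ± 1.36 CPM in knockdown and 28.7 ± 1.62 CPM in Scr libraries, a rise of 0.39 (edgeR adjusted p = 0.00939). Tent4a, a noncanonical poly(A) polymerase, rose by 0.38 (adjusted p = 0.00779) and Pabpn1, the nuclear poly(A)-binding protein of the PAXT connection, by 0.24 (adjusted p = 0.0225). The Pabpn1 call ended with the length correction (0.17), without pair 1 (0.20), without pair 2 (0.28) and in DESeq2 with the block (0.23), and those of Rbm7 (0.43) and Tent4a (0.42) ended without pair 2. Mtrex, the helicase, was at 69.7 ± 3.27 CPM in knockdown and 64.1 ± 1.56 CPM in Scr libraries, with a log2 fold change of 0.12 (adjusted p = 0.178). In the cap-binding list 1 of 6 rose, Phax, an adaptor for export of small nuclear RNA, by 0.28 (adjusted p = 0.0356), a call that ended with the length correction (0.19), without pair 1 (0.21), without pair 2 (0.34) and in DESeq2 with the block (0.27).

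The SKI list went both ways, with 1 of 7 higher and 1 lower. Ttc37, the scaffold of the SKI complex, was at 44.3 ± 4.59 CPM in knockdown and 55.6 ± 2.02 CPM in Scr libraries and fell by 0.33 (edgeR adjusted p = 0.0116), a call that ended without pair 1 (-0.31) and without pair 2 (-0.39). The helicase gene Skiv2l had a log2 fold change of -0.18 and Wdr61 one of 0.06, and neither passed. Pelo, a ribosome rescue factor, rose by 0.41 (adjusted p = 0.00575).

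Of 9 nucleolar adaptors and pre-rRNA factors, 3 rose and 0 fell, while of all tested genes 10.5% rose and 11.1% fell. The list was not tested as a set. Isg20l2, an exonuclease of ribosomal RNA maturation, was at 28.1 ± 2.22 CPM in knockdown and 19.3 ± 0.733 CPM in Scr libraries, a rise of 0.54 (edgeR adjusted p = 0.00428). Utp18, whose yeast counterpart binds the exosome's helicase, rose by 0.35 (adjusted p = 0.0301) and Nvl, a nucleolar ATPase that binds MTREX, by 0.27 (adjusted p = 0.0483). The calls of Utp18 and Nvl ended without pair 1 (0.29 and 0.25), without pair 2 (0.45 and 0.24) and in DESeq2 with the block (0.34 and 0.26).

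Decapping followed by 5′ to 3′ decay is the other main route of mRNA breakdown, and 1 of its 12 genes rose and 1 fell. Edc3, an enhancer of decapping, was at 43.4 ± 5.81 CPM in knockdown and 31.5 ± 3.20 CPM in Scr libraries, a rise of 0.46 (edgeR adjusted p = 0.00415). Xrn1, the main cytoplasmic 5′ to 3′ exonuclease, fell by 0.43 (adjusted p = 0.00689) to 41.1 ± 2.47 CPM in knockdown, against 55.7 ± 7.21 CPM in Scr libraries. Among 18 deadenylase genes and partners, Btg1, an antiproliferative partner of the CCR4-NOT complex, rose by 0.63 (adjusted p = 0.00169) and Cnot9 by 0.28 (adjusted p = 0.0233), while the scaffold Cnot1 fell by 0.25 (adjusted p = 0.015). Of 10 nonsense-mediated decay genes 0 rose and 2 fell, while of all tested genes 10.5% rose and 11.1% fell. Those that fell were the kinase gene Smg1, by 0.35 (adjusted p = 0.0166), and the endonuclease gene Smg6, by 0.33 (adjusted p = 0.0235). With the length correction and the block the falls of Cnot1 (-0.15), Smg1 (-0.17) and Smg6 (-0.26) did not pass. The calls of Cnot1, Cnot9 and Smg6 also ended when pair 1 (-0.26, 0.23 and -0.26) or pair 2 (-0.28, 0.32 and -0.36) was left out, as did that of Smg1 without pair 2 (-0.41). Total count scaling with the block ended those of Cnot1 (-0.15) and Smg6 (-0.22), and in DESeq2 with the block neither Cnot9 (0.27) nor Smg6 (-0.34) passed.

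**Figure D5:**
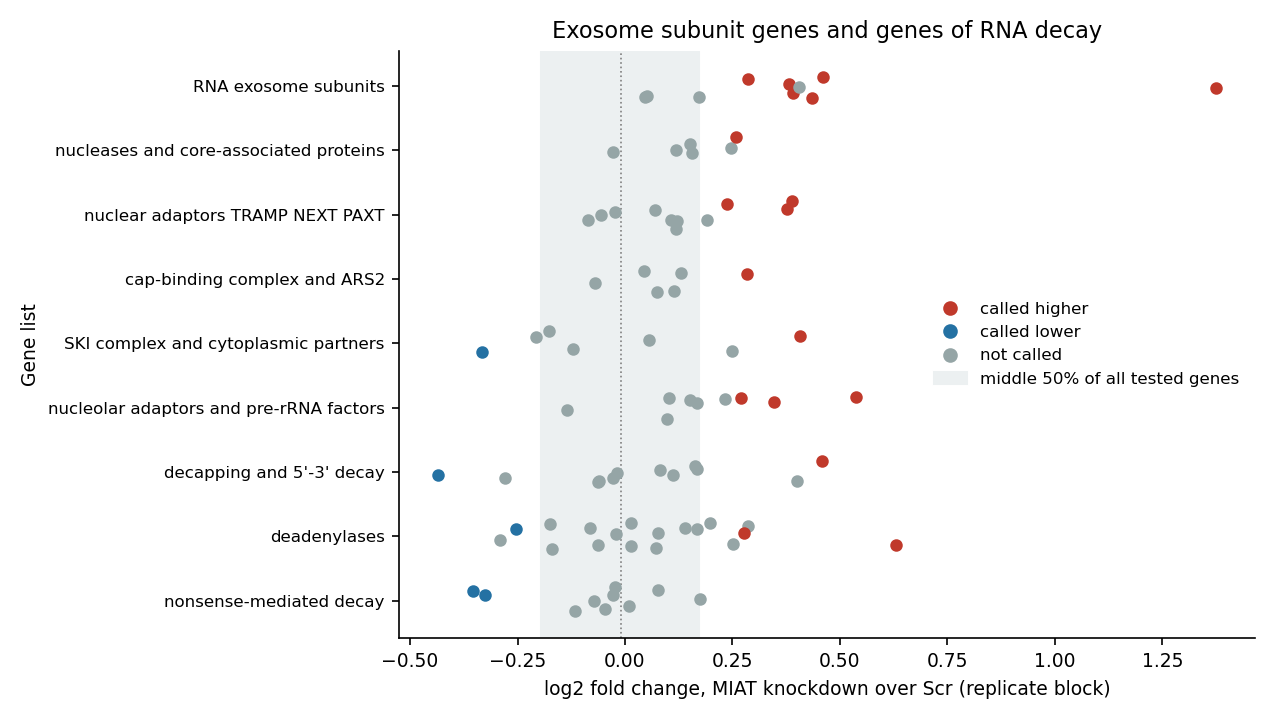
log2 fold change of MIAT knockdown over Scr in the block fit for the exosome subunit genes (top) and for 8 lists of exosome partners and other RNA decay genes, 1 point a gene, coloured by the call at an adjusted p under 0.05, with the middle 50% of all tested genes shaded. Exosc6 at 1.37 lies beyond every gene of the lists, of which the highest is Btg1 at 0.63.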

How the data were processed

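The authors deposited unnormalized read counts per gene symbol, whole numbers by their values. The authors also deposited FPKM for the same genes and libraries, per the file headers. By a check on the files, 100% of the FPKM compared equalled the count divided by a gene length and by the summed counts, to within 1e-06. For the aligner, the counting program with its strand setting, and the build, the entry is: not given in the sources used here. Members and gene lists were chosen with earlier results of these data known.

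Counts were filtered with filterByExpr, scaled with TMM and fitted with edgeR 4.0.16 (R 4.3.3) over all genes, with Benjamini-Hochberg adjustment at 0.05, group as the only term, and with the library number as a block as an alternative. The standard error is the log2 fold change over the square root of the F statistic. After removal of group means, same-numbered libraries correlated at 0.67, 0.49 and 0.56 across genes, against -0.55 to -0.05 for differently numbered ones. Removal of the means forces negative values to balance positive ones, so the negative range is no separate evidence. The pairing rests on the same-numbered correlations and on the shared numbers in the titles, since the labels do not say what a number stands for. Residual degrees of freedom were 4 without and 2 with the block. No library was a copy of another, since within-group chi-square values over degrees of freedom were 21.7 to 89.9.

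Named were all 10 members, per list up to 3 genes with the largest absolute change among those called with the block, and the 5 genes of at least 20 CPM most like the members. Promoter sequences come from RefSeq (GRCr8). Genes beside these, Dis3, Dis3l, Mtrex, Skiv2l, Wdr61, Cnot2, Cnot6l, Pan3, Nol9 and Tob1, were named after their values were seen. So were the single cell type markers and the neighbours in the annotation. Alternatives were DESeq2 1.42.0, limma 3.58.1 on log2(FPKM + 1) and log2(FPKM + 0.1), other scaling, other filters, a loess correction for gene length (span 0.5), and each library or pair left out. Counting errors cover counting only.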

Additional observations from a re-analysis of the deposited data

How the results depend on the processing

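Without the block, 0 members, 0 of all genes and 0 of the 79 associated genes were called by edgeR with every scaling, filter and length setting tried and by limma on either FPKM scale. DESeq2 without the block called 2 members, 699 genes and 4 associated genes. With the replicate block the counts were 6 members, 2898 genes (1412 higher, 1486 lower) and 17 associated genes. Block with DESeq2 gave 2, 1590 and 10, with total count scaling 7, 3641 (2822 higher, 819 lower) and 31, with limma on log2(FPKM + 1) 7, 2857 (2392 higher, 465 lower) and 20, and with the length correction 2, 2620 and 17. Without pair 1 the block fit called 1 member, 1195 genes and 8 associated genes, without pair 2 it called 1, 736 and 5, and without pair 3 it called 5, 4124 and 24. The 1 member was Exosc6 both times. The cause of these moves was not tested.

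The members' median log2 fold change of 0.39 was 0.28 with the length correction and 0.27 with that and the block. It was 0.51 with total count scaling, 0.49 with that and the block, and 0.49 on log2(FPKM + 0.1). Total count scaling moved the median of all genes by 0.11, and relative to that shift the members' median was 0.40. Leaving out 1 library gave 0.28 to 0.48, and leaving out pair 1, 2 or 3 in the block fit gave 0.31, 0.45 and 0.34. Over 22 alternatives Exosc6 ranged from 1.22 to 1.51, and all members but Exosc8 stayed above 0. Exosc8 was above 0 in 17 of the 22, with a lowest value of -0.02 without Scr library 3. The depth of 204 to 292 counts a library for Exosc5 and 206 to 250 for Exosc8 limits the precision of differences as small as theirs. Exosc10, at 994 to 1162 counts a library, had a log2 fold change of 0.05, smaller than its SE of 0.0679.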
